A study of Mus musculus with 6 samples.

Results

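The CBFA2T family of corepressors and the proteins that act with it were followed at the RNA level in NE-4C cells, a mouse neural stem cell line that lacks p53. The set held 9 genes picked by name: the family members Cbfa2t2, Cbfa2t3 and Runx1t1, the partner Prdm14, the corepressors Ncor1 and Sin3a, and the histone deacetylases Hdac1, Hdac2 and Hdac3. Their rows were taken from both deposited expression tables, and 7 of the 9 were present in both, among 14082 genes shared by the tables and 14667 in at least 1 of them. Cbfa2t3 and Prdm14 were in neither table. Each table lists a gene only if it reached 0.5 FPKM (fragments scaled by transcript length and library size) in at least 1 library, so what these genes did below that level is not seen.

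The lines compared were 3, with 2 poly(A) RNA-seq libraries each. All of them carry a knockout of H3f3a, a gene for the histone variant H3.3, and all stably express an HA-tagged H3.3. H3.3WT expresses the wild-type histone, and Cbfa2t2_KO expresses the same histone in cells in which Cbfa2t2 was knocked out as well. H3.3K27M expresses the mutant histone in which a lysine is replaced by methionine, and its Cbfa2t2 gene was not edited. The series title gives the question: what CBFA2T2, described there as a protein that reads a histone mark on H3, does for gene expression. Whether a line is a single clone, what promoter drives the tagged histone and where Cbfa2t2 was cut are not stated in the labels. The labels call the second library of each line a repeat, and nothing says that it was a separate culture, so the p-values below may reflect technical spread alone.

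The read depth is unknown, since the tables hold no counts. Of 12 neural stem and progenitor markers 10 were in both tables, with summed levels of 212 to 220 FPKM in H3.3WT, 143 to 150 in Cbfa2t2_KO and 166 to 177 in H3.3K27M. Not all of them were lower, since Vim stood at 10.3 and 12.1 FPKM in H3.3WT, 27.3 and 26.5 in Cbfa2t2_KO, and 34.6 and 41.8 in H3.3K27M, and Prom1 was also higher in both other lines than in H3.3WT. Sox1 and Fabp7 were missing, and Pax6 stayed under 1 FPKM in every library, while the pluripotency factor Pou5f1 stood at 919 to 1351 FPKM. The 4 of 7 neuron markers in both tables summed to 76.5 to 77.6 FPKM in H3.3WT, 134 to 150 in Cbfa2t2_KO and 76.8 to 81.4 in H3.3K27M, with Map2, Dcx and Snap25 missing. Most of this sum was Tubb3 (68.9 and 67.4 FPKM in H3.3WT, 123 and 139 in Cbfa2t2_KO). Stmn2 was also higher in Cbfa2t2_KO, Syt1 overlapped H3.3WT and Rbfox3 was lower (1.83 and 1.64, then 1.18 and 1.14). The 3 of 6 astrocyte markers summed to 26.2 to 33.3, 25.6 to 41.3 and 49.2 to 61.4 FPKM, with Gfap, Aqp4 and S100b missing. Of these, Slc1a3 was lower in both other lines (11.5 and 11.8 FPKM in H3.3WT, 4.82 and 3.79 in Cbfa2t2_KO, 8.19 and 6.28 in H3.3K27M). Aldh1l1 was higher in both, and Gja1 in H3.3K27M. None of 5 microglia and leukocyte markers was in both tables. The part of these marker levels in the results below was not tested.

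As background, CBFA2T proteins (also called ETO or MTG proteins) do not recognise DNA sequence by themselves. They are brought to chromatin by DNA-binding factors such as E proteins, RUNX fusions or PRDM14, and they hold the corepressors NCoR, which carries HDAC3, and SIN3A, which carries HDAC1 and HDAC2. These enzymes remove acetyl groups from histone tails, a change linked to lower transcription. RUNX1T1 is best known from its fusion with RUNX1 in acute myeloid leukaemia, CBFA2T3 from blood progenitors, and CBFA2T2 from its work with PRDM14 in pluripotent and germ cells.

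The gene knocked out in this study has a near-identical copy that the tables count separately. Cbfa2t2 (ENSMUSG00000038533) lies at chr2:154436481-154539356 on GRCm38, forward strand, with up to 11 exons in a GENCODE vM21 transcript. Cbfa2t2-ps1 (ENSMUSG00000087034), a processed pseudogene on chromosome 5, matches bases 110 to 831 of the main Cbfa2t2 transcript with 99.45% identity, 3 mismatches and 1 gap. This stretch runs over exons 1 to 6, all of it coding, and makes up 11.9% of the transcript. Both sequences are shown around the difference C389T (the base of Cbfa2t2, its position from the start of that transcript, and the base of the copy), with the differing base in capitals, because a fragment that covers none of the differences between the loci cannot be assigned to either. The Cbfa2t2 bases are in exon 3 at chr2:154504625-154504685 and those of the copy at chr5:60231732-60231792, both on the forward strand and both written 5′ to 3′.
Cbfa2t2: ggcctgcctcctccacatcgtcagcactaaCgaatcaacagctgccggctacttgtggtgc
Cbfa2t2-ps1: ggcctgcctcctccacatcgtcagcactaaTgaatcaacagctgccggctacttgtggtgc
The sources used here do not give the counting of reads with several possible origins.

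The upstream regions of 2 genes are shown as well, those of the edited gene and of Sin3a, the member whose RNA passed the test in the results below. They come from the RefSeq table of GRCm38.p6, which matched 5 of the 9 genes, and each ends at the base before a RefSeq start. Capitals mark GGGCGG, the core of the GC box, searched on both strands and present in 32.7% of 32851 upstream windows of the same length. The Cbfa2t2 region is chr2:154436234-154436483, forward strand, and its last 3 bases are annotated as exon in GENCODE. The Sin3a region is chr9:57071790-57072039, forward strand, before the first of 2 RefSeq starts.
Cbfa2t2: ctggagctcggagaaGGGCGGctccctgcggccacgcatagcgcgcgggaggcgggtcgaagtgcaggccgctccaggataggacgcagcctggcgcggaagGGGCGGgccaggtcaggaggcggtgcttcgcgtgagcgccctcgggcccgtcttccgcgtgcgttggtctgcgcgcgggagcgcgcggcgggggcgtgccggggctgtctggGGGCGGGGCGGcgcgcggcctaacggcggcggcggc
Sin3a: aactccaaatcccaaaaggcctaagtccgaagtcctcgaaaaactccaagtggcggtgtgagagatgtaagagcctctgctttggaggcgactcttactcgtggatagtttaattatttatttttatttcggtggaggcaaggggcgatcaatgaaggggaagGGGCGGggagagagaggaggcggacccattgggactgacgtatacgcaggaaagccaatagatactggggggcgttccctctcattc
The Cbfa2t2 region holds 41 CpG dinucleotides and is 78.4% G and C, above 98.1% of windows, and GGGCGG occurs in it 4 times. The Sin3a region holds 12 CpG and is 50.8% G and C, against medians of 6 and 52.4% over all windows. It has GGGCGG once and CCAAT (or its reverse, ATTGG) 2 times, a motif in 33.8% of windows. The start of the antisense gene model Gm10658 lies inside it.

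The levels of the 7 genes spread widely. In H3.3WT the order from high to low was Hdac1, Sin3a, then Hdac3 and Hdac2 with overlapping libraries, then Ncor1, Runx1t1 and Cbfa2t2. In Cbfa2t2_KO the level of Sin3a overlapped that of Hdac2 and lay under that of Hdac3. In H3.3K27M Hdac3, Hdac2 and Sin3a overlapped, and so did Runx1t1 and Cbfa2t2. Hdac1 stood at the 95.1 to 96.2 percentile of all genes in each library and Cbfa2t2 at the 16.2 to 31.1 percentile.

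**Figure D1:**
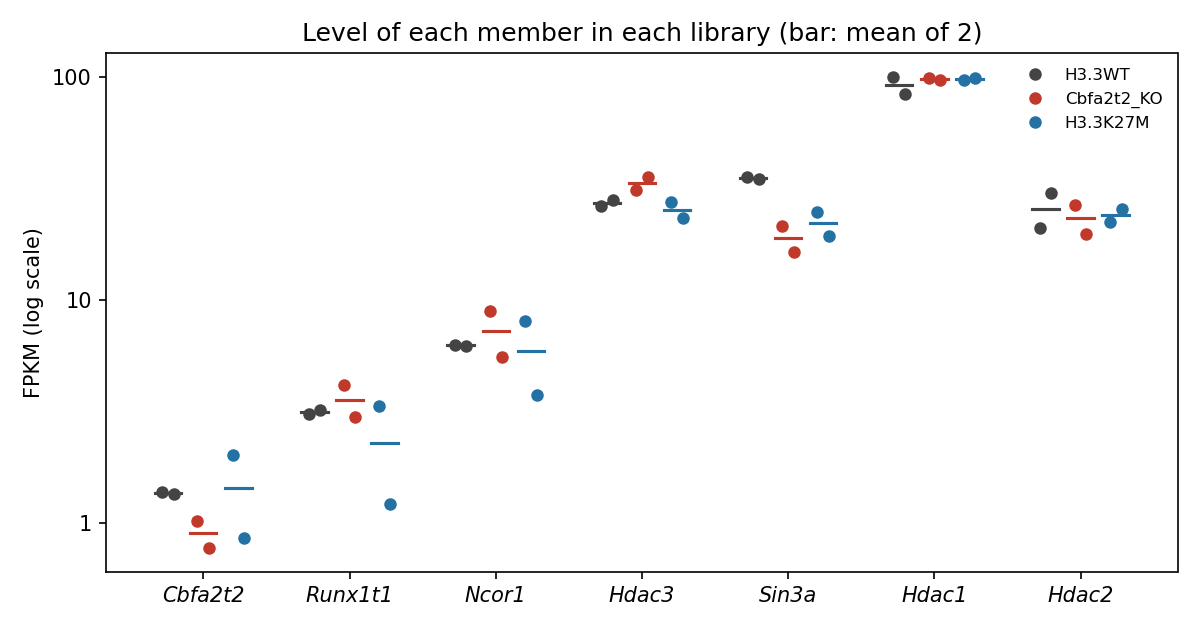
FPKM (log axis) of the 7 genes in each of 6 libraries, coloured by line, with a bar at the mean of the 2 libraries. Sin3a is the gene whose H3.3WT libraries (35.5 and 34.7 FPKM) both lie above all 4 other libraries, and the 2 H3.3K27M libraries stand far apart for Cbfa2t2, Runx1t1 and Ncor1.

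Among the 7 genes, 1 passed the test in Cbfa2t2_KO against H3.3WT, Sin3a, which fell. Over all 11626 genes tested, 34.6% were called in that comparison, and 21.5% were called lower. In H3.3K27M against H3.3WT 1 of 7 passed, again Sin3a, which fell, where 26.2% of 11623 genes were called, 8.42% higher and 17.8% lower. Between H3.3K27M and Cbfa2t2_KO none of 7 passed (limma, with 1 of 7 at an unadjusted p under 0.05, Hdac3), where 7.8% of 11601 genes were called, 3.12% higher and 4.68% lower. Both of the first comparisons use the same H3.3WT libraries, so their values stand side by side and are not independent.

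**Figure D2:**
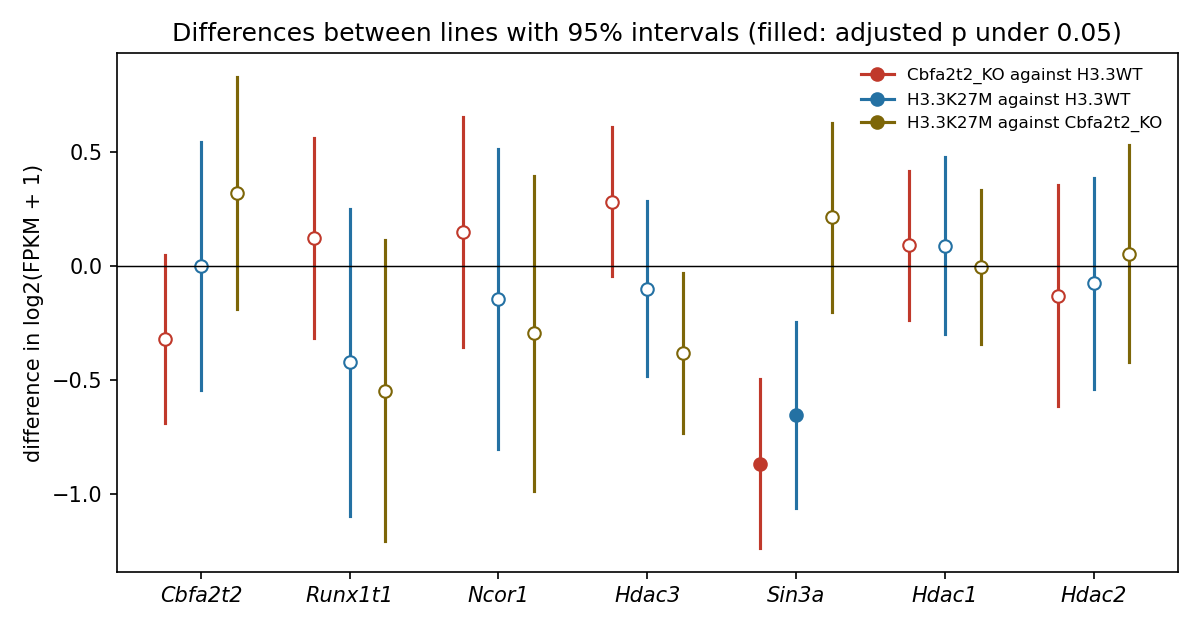
Difference in log2(FPKM + 1) for the 7 genes in 3 comparisons, with 95% intervals from limma, and filled points where the adjusted p is under 0.05. The filled points are those of Sin3a at -0.87 and -0.65, and the intervals of the other 6 genes against H3.3WT all span 0.

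Cbfa2t2 RNA stood at 1.38 and 1.35 FPKM in H3.3WT, 1.02 and 0.769 in Cbfa2t2_KO, and 2.02 and 0.855 in H3.3K27M. Both libraries of the knockout lay under both H3.3WT libraries, while those of H3.3K27M lay on either side. Libraries of these groups do not overlap for 70.4% of all genes tested in Cbfa2t2_KO against H3.3WT, where the same held for 3 of the 7 genes, Cbfa2t2, Hdac3 and Sin3a. The difference of Cbfa2t2 in the knockout was -0.32 ± 0.16 (SE, on the log2(FPKM + 1) scale, which understates changes of low genes), with a 95% interval of -0.69 to 0.05 and an adjusted p of 0.153. With a smaller pseudocount of 0.1 it was -0.57. An edit that leaves most of the transcript in place would not have to change a gene-level value, so this level does not check the label.

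The copy was listed at higher FPKM than the gene. FPKM is scaled by transcript length, and the longest transcripts have 730 bases for the copy and 6080 for Cbfa2t2. A higher FPKM of the copy therefore need not mean more fragments. Cbfa2t2-ps1 stood at 5.42 and 3.77 FPKM in H3.3WT, 1.43 and 3.14 in Cbfa2t2_KO, and 5.12 and 1.85 in H3.3K27M. Both knockout libraries lay under both H3.3WT libraries, and the 2 knockout libraries differed from each other by 2.21 times. Its difference in Cbfa2t2_KO against H3.3WT was -0.80 ± 0.28, with an adjusted p of 0.0551. It was called in 4 of 13 alternatives, with an adjusted p from 0.0310 to 0.258. Its values were looked up after those of Cbfa2t2 were seen.

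Runx1t1 (ENSMUSG00000006586), the family member on chromosome 4, was the more abundant of the pair. It stood at 3.09 and 3.21 FPKM in H3.3WT, 4.14 and 2.99 in Cbfa2t2_KO, and 3.33 and 1.22 in H3.3K27M. The lines overlapped in the first comparison and in the second, and the low value of H3.3K27M replicate 2 stood alone. The differences were 0.13 (95% interval -0.31 to 0.56) in Cbfa2t2_KO and -0.42 (-1.095 to 0.25) in H3.3K27M, neither of them called. Without H3.3K27M replicate 1 the second of these was -0.91 and was called (adjusted p = 0.0259), and without replicate 2 it was 0.06 (adjusted p = 0.853). Against Cbfa2t2_KO it was -0.55 with all libraries, and -1.03 (adjusted p = 0.0432) without H3.3K27M replicate 1.

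In Cbfa2t2_KO and in H3.3K27M the ratio of the 2 family members differed less between libraries than either gene did, while in H3.3WT each gene differed less than their ratio. Their longest transcripts are nearly equal, at 6090 bases for Runx1t1 and 6080 for Cbfa2t2. The ratio of Runx1t1 to Cbfa2t2 was 2.24 and 2.38 in H3.3WT, 4.04 and 3.89 in Cbfa2t2_KO, and 1.65 and 1.42 in H3.3K27M. No library of any line overlapped another line in this ratio. For single genes, libraries of a pair of lines do not overlap in 58.2% to 70.4% of all genes tested. How often ratios of other genes separate the lines was not measured. The denominator of the ratio is the gene edited in Cbfa2t2_KO. No exact permutation test of 2 against 2 libraries can reach 0.05, so the order is a description. The sum of both genes ran from 4.47 to 4.56 FPKM in H3.3WT, 3.76 to 5.16 in Cbfa2t2_KO and 2.07 to 5.35 in H3.3K27M, all overlapping.

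**Figure D3:**
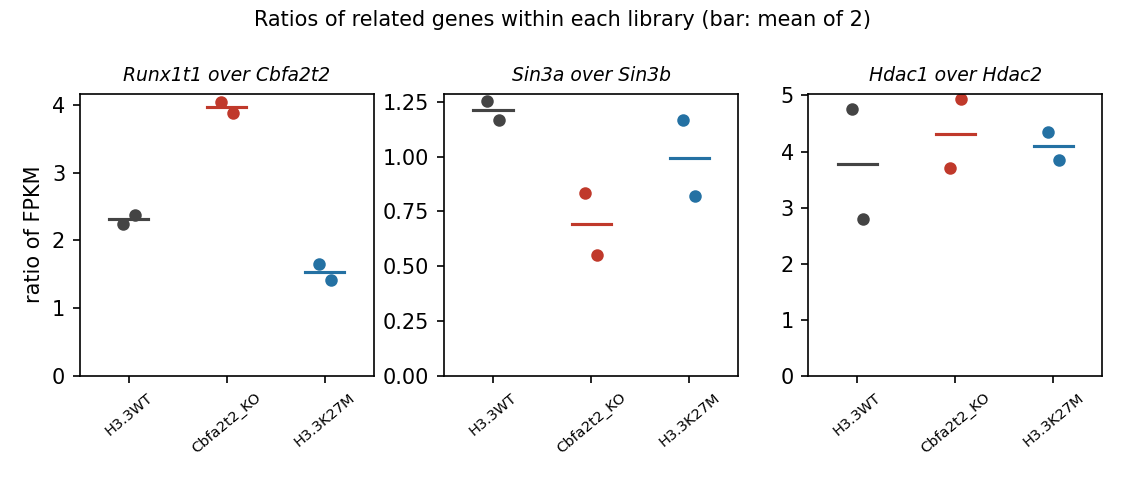
Ratio of FPKM of related genes within each library, with a bar at the mean of the 2 libraries of a line. The 3 lines separate for Runx1t1 over Cbfa2t2, with 4.04 and 3.89 in Cbfa2t2_KO, while the ratio of Hdac1 to Hdac2 (2.79 to 4.93 over all libraries) overlaps between lines.

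In H3.3K27M the longest members differed most between the 2 libraries. The ratio of H3.3K27M replicate 2 to replicate 1 was 0.424 for Cbfa2t2, 0.365 for Runx1t1 and 0.465 for Ncor1, whose longest transcripts have 6080, 6090 and 9037 bases. For Hdac1, at 2038 bases, it was 1.02. In H3.3WT the widest were the shorter Hdac2 (1.42) and Hdac1 (0.836), and in Cbfa2t2_KO Ncor1 (0.623), Runx1t1 (0.723) and Hdac2 (0.738). Across all genes the difference of replicate 2 from replicate 1 in H3.3K27M moved with transcript length, from a median of 0.26 (log2) up to 1000 bases to -0.54 above 8000 bases. In Cbfa2t2_KO it moved from 0.086 to -0.32 and in H3.3WT from 0.070 to -0.018. In an alternative chosen after seeing the data, each library's trend on length and on G and C content was removed (below, the length and GC trend). This also moved the median difference of all genes, from -0.11 to 0.0002 in Cbfa2t2_KO and from -0.12 to -0.0037 in H3.3K27M. The part of the trend alone in the members' values was therefore not measured. With the trend removed Runx1t1 was at -0.40 in H3.3K27M and Cbfa2t2 at -0.15 in the knockout, both uncalled.

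**Figure D4:**
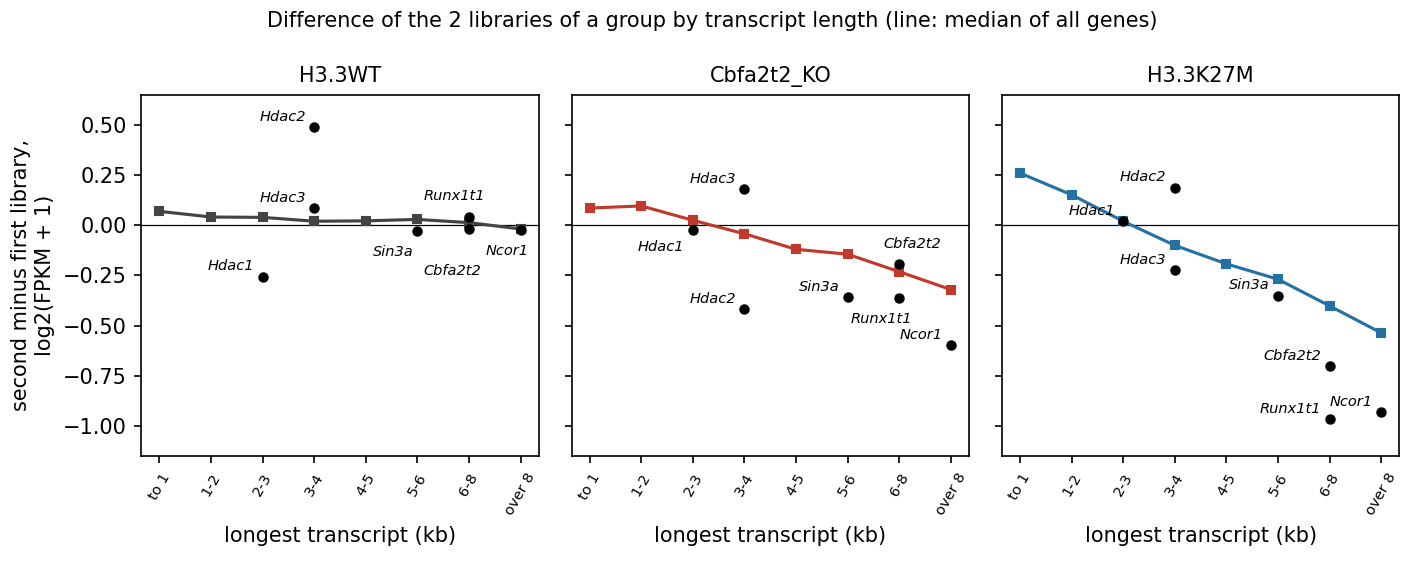
Difference between the 2 libraries of each line (replicate 2 minus replicate 1, log2(FPKM + 1)) against the longest transcript of a gene in kilobases, as a median over all genes (line) with the 7 members as labelled points. The line is nearly flat in H3.3WT and falls to -0.32 in Cbfa2t2_KO and -0.54 in H3.3K27M for the longest transcripts, where Ncor1 lies.

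By a fixed rule the 3 genes with the pattern most like each family member were named, by Pearson correlation over 6 libraries among 9934 genes. For Cbfa2t2 they were Cmip (r = 0.989), Rnf111 (0.976) and Pan3 (0.974), and for Runx1t1 Sash1 (0.994), Akap10 (0.990) and Lrp4 (0.990). In each of these genes H3.3K27M replicate 2 lay below replicate 1, for example 1.51 FPKM of Akap10 against 3.64. H3.3K27M replicate 2 was the lowest of the 6 libraries for Sash1, Akap10, Lrp4, Cmip and Pan3. For Cmip (5.34 FPKM) and Pan3 (1.06) it lay just under Cbfa2t2_KO replicate 2 (5.47 and 1.08). For Rnf111, as for Cbfa2t2 itself, the lowest was Cbfa2t2_KO replicate 2 (2.48 FPKM of Rnf111). The correlations describe 6 libraries only, and 179 genes had r above 0.9 with Runx1t1 and 73 with Cbfa2t2.

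NCoR, encoded by Ncor1, is a scaffold that CBFA2T proteins hold, and it carries HDAC3 and makes it active. Ncor1 (ENSMUSG00000018501, chr11:62316426-62458541, reverse strand) stood at 6.31 and 6.20 FPKM in H3.3WT, 8.90 and 5.55 in Cbfa2t2_KO, and 8.07 and 3.75 in H3.3K27M. In Cbfa2t2_KO and in H3.3K27M replicate 1 lay above and replicate 2 below both H3.3WT libraries. The differences were 0.15 (95% interval -0.36 to 0.66) and -0.14 (-0.80 to 0.51), neither called. Ends of the neighbouring genes Ttc19 and Pigl overlap Ncor1, and whether reads were counted by strand is not stated.

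Hdac3 (ENSMUSG00000024454), the deacetylase of this scaffold, stood at 26.3 and 28.0 FPKM in H3.3WT, 31.2 and 35.5 in Cbfa2t2_KO, and 27.4 and 23.3 in H3.3K27M. The knockout libraries were the highest 2 of the 6 and overlapped no other. The difference was 0.28 ± 0.14 against H3.3WT, with an adjusted p of 0.152 and an interval of -0.04 to 0.61. H3.3K27M lay lower than the knockout by a difference of -0.38 ± 0.16, with an adjusted p of 0.147, where libraries of these 2 lines do not overlap for 58.2% of all genes. Against H3.3WT it was -0.10 (-0.48 to 0.29) in H3.3K27M. Hdac3 was not called in any comparison under any of the alternatives run.

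Of 5 tested genes of the NCoR complex, 1 passed in Cbfa2t2_KO against H3.3WT, Gps2, which rose, where 13.1% of all genes were called higher. Gps2 encodes a small subunit that binds the scaffold and also restrains JNK signalling. It stood at 17.5 and 12.6 FPKM in H3.3WT, 21.1 and 23.8 in Cbfa2t2_KO, and 13.4 and 12.3 in H3.3K27M. Both knockout libraries were above the rest, with a difference of 0.56 ± 0.18 (adjusted p = 0.0455). That call ended on leaving out H3.3WT replicate 2 (0.34, adjusted p = 0.220), Cbfa2t2_KO replicate 1 (0.65, 0.0900) or Cbfa2t2_KO replicate 2 (0.48, 0.207), with a lower or no filter on low genes (0.0532) and without the eBayes trend (0.0564). Gps2 was also the 1 gene of 5 called in H3.3K27M against Cbfa2t2_KO, at -0.76 ± 0.19 (adjusted p = 0.0425), where 4.68% of all genes were called lower. This second call ended on leaving out any single library of either line (-0.84 to -0.67). It also ended with a lower or no filter (adjusted p = 0.0515 and 0.0518) and with the length and GC trend removed (-0.53, 0.0649). None of the 5 passed in H3.3K27M against H3.3WT, where 26.2% of all genes were called. The median difference of the list was 0.15, -0.14 and -0.29 in the 3 comparisons, beside -0.11, -0.12 and -0.02 over all genes tested.

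SIN3A is a scaffold that holds HDAC1 and HDAC2 and has no DNA-binding domain of its own. Sin3a (ENSMUSG00000042557, chr9:57072040-57128366, forward strand, up to 22 exons) stood at 35.5 and 34.7 FPKM in H3.3WT, 21.4 and 16.5 in Cbfa2t2_KO, and 24.9 and 19.3 in H3.3K27M. Both other lines lay under H3.3WT with no overlap, and they overlapped each other. In Cbfa2t2_KO it fell by 0.87 ± 0.16 on the log2 scale (-0.87, 95% interval -1.24 to -0.50, adjusted p = 0.00588), to 0.548 of the H3.3WT level on that scale. It was called in all 14 alternatives, at -1.05 to -0.69 with adjusted p from 0.00299 to 0.0460.

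In H3.3K27M Sin3a fell by 0.65 ± 0.18 on the log2 scale (-0.65, interval -1.06 to -0.24, adjusted p = 0.0299), where libraries of the 2 lines do not overlap for 66.3% of all genes and 1 of the 7 members. It was called in 9 of 14 alternatives. It was not called on leaving out H3.3WT replicate 1 (-0.64, adjusted p = 0.143), H3.3WT replicate 2 (-0.67, 0.135) or H3.3K27M replicate 2 (-0.48, 0.113). The call was also lost with median-of-ratios scaling (-0.50, 0.0707) and quantile normalization (-0.48, 0.0827). These scalings remove a shift of the median of all genes, which stood at -0.11 in Cbfa2t2_KO and -0.12 in H3.3K27M. With the trend on length and G and C content removed Sin3a was at -0.71 (adjusted p = 0.00598) in Cbfa2t2_KO and -0.51 (0.0228) in H3.3K27M. The direct difference of H3.3K27M from Cbfa2t2_KO was 0.21, with an interval of -0.20 to 0.63 and an adjusted p of 0.468.

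The paralogue Sin3b did not pass in either line. It stood at 28.3 and 29.7 FPKM in H3.3WT, 25.7 and 29.8 in Cbfa2t2_KO, and 21.4 and 23.6 in H3.3K27M, with differences of -0.07 (adjusted p = 0.745) and -0.35 (0.138). The ratio of Sin3a to Sin3b was 1.25 and 1.17 in H3.3WT, 0.833 and 0.553 in Cbfa2t2_KO, and 1.17 and 0.818 in H3.3K27M. The H3.3WT libraries had the highest 2 ratios, the lower of them (1.168) next to H3.3K27M replicate 1 (1.166), and the other lines overlapped each other. The sum of both scaffolds was 63.8 and 64.4 FPKM in H3.3WT, 47.1 and 46.3 in Cbfa2t2_KO, and 46.3 and 43.0 in H3.3K27M. Reads of the antisense gene model Man2c1os, which overlaps Sin3a, cannot be told apart from its own if strand was not used.

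Of 18 tested genes of the SIN3 complex, 2 rose and 5 fell in Cbfa2t2_KO, and 2 rose and 5 fell in H3.3K27M. Over all genes 34.6% and 26.2% were called in these comparisons. The list's median was -0.10 and -0.04, close to the -0.11 and -0.12 of all genes. Brms1, Ing1, Sin3a and Suds3 were called lower in both lines, Arid4a in Cbfa2t2_KO and Sap130 in H3.3K27M. Sap18 and Sap18b were called higher in both lines. In H3.3K27M against Cbfa2t2_KO none of 18 passed, where 7.8% of all genes were called. There Sap130 was at -0.75 (limma adjusted p = 0.0633) and Arid4a at 0.17 (0.539), so neither difference between the lines was called.

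**Figure D5:**
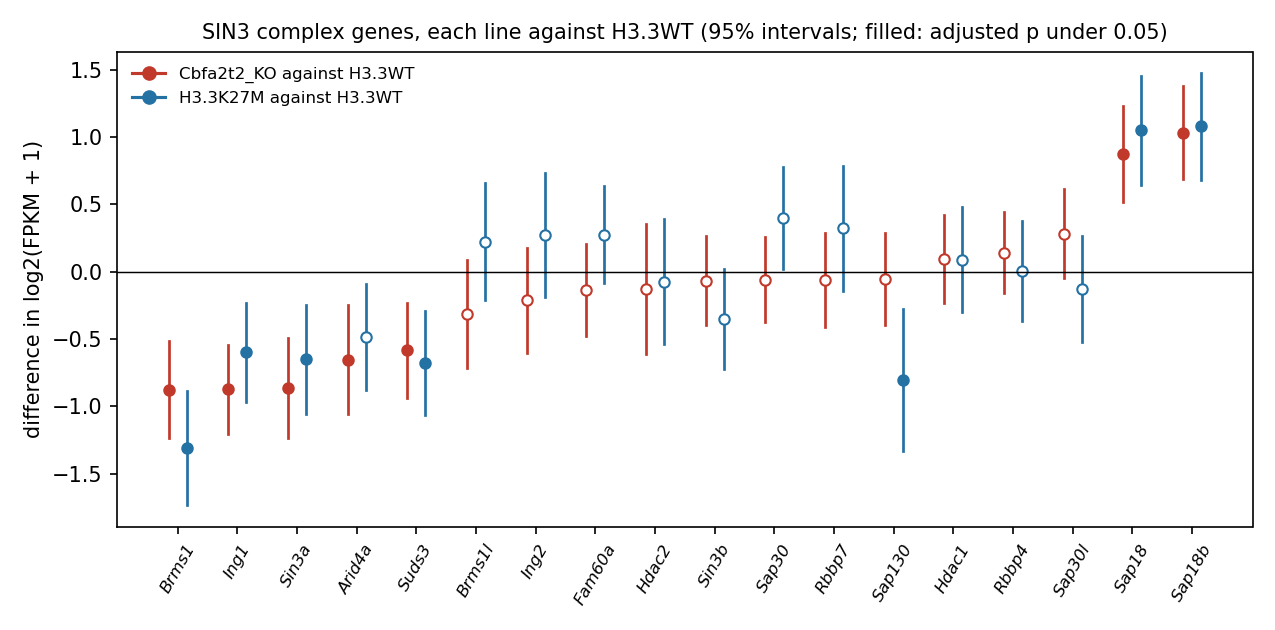
Difference in log2(FPKM + 1) from H3.3WT of 18 SIN3 complex genes in Cbfa2t2_KO and H3.3K27M, ordered by the value in Cbfa2t2_KO, with 95% intervals from limma and filled points where the adjusted p is under 0.05. Brms1 (-0.88 and -1.31) and Sap18b (1.03 and 1.08) lie at the ends, and Hdac1 and Hdac2 lie near 0.

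BRMS1 is a scaffold-like subunit first known as a suppressor of breast cancer metastasis. Brms1 stood at 78.8 and 95.5 FPKM in H3.3WT, 43.0 and 50.9 in Cbfa2t2_KO, and 30.6 and 38.6 in H3.3K27M. H3.3WT lay far above both other lines, with differences of -0.88 ± 0.16 (adjusted p = 0.00500) and -1.31 ± 0.19 (0.00298), called in all 14 alternatives of each. Ing1, whose protein reads methylated lysine 4 of histone H3, stood at 25.6 and 26.3 FPKM in H3.3WT, 14.5 and 12.9 in Cbfa2t2_KO, and 17.1 and 16.5 in H3.3K27M. No library of the other lines reached H3.3WT. Its difference of -0.87 ± 0.14 in Cbfa2t2_KO was called in all 14 alternatives. The one in H3.3K27M was -0.60 ± 0.16 (adjusted p = 0.0276). That call was lost without H3.3WT replicate 1 (-0.62), H3.3WT replicate 2 (-0.58) or H3.3K27M replicate 2 (-0.58). It was also lost with median-of-ratios scaling (adjusted p = 0.0776), quantile normalization (0.0822) and the length and GC trend removed (-0.33, 0.0766).

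SAP18 is a small ubiquitin-fold subunit that also sits on spliced RNA. Sap18 stood at 11.6 and 11.8 FPKM in H3.3WT, 20.4 and 24.5 in Cbfa2t2_KO, and 22.8 and 28.1 in H3.3K27M, and all 4 libraries of the other lines lay above H3.3WT. The differences were 0.88 ± 0.15 and 1.05 ± 0.18, called in all 14 alternatives of each. Sap18b (19.4 to 23.5 FPKM in H3.3WT, 43.5 to 48.8 in the other lines) has 1 exon and matches Sap18 over 780 of its 789 bases without a mismatch. Reads of this stretch cannot be assigned to either gene, so the 2 calls are not separate measurements and which gene rose is uncertain.

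The remaining calls of the SIN3 list were each lost in some alternatives. A fit without a library leaves 1 in its group, and calls over all genes also fell in each such fit. A call lost there therefore need not depend on that library. Suds3 fell by 0.58 on the log2 scale in Cbfa2t2_KO and by 0.68 in H3.3K27M, and these calls were kept in 8 and 7 of 14 alternatives. The first ended without H3.3WT replicate 2 (-0.50) or either knockout library (-0.50 and -0.67). The second ended without any single library (-0.76 to -0.59). Both were also lost with the length and GC trend removed (-0.40 and -0.34). The same held with median-of-ratios scaling (limma adjusted p = 0.0552 and 0.0571) and with quantile normalization (0.0527 and 0.0688). Arid4a in Cbfa2t2_KO, at -0.66 with all libraries, lost its call without either H3.3WT library (-0.65 and -0.66) or Cbfa2t2_KO replicate 2 (-0.49). Sap130 in H3.3K27M lost it without either H3.3WT library (-0.67 and -0.94) or H3.3K27M replicate 2 (-0.48). Its call also ended with either other scaling (adjusted p = 0.0652 and 0.0865) and with the length and GC trend removed (0.0526). Without single libraries the number called lower ranged from 3 to 4 in Cbfa2t2_KO, with 3 without H3.3WT replicate 2 or Cbfa2t2_KO replicate 2. In H3.3K27M it was 1 without H3.3WT replicate 1, H3.3WT replicate 2 or H3.3K27M replicate 2, and 1 with either other scaling, and the gene left was Brms1. The number called higher stayed at 2 or 3 in both lines.

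HDAC1 and HDAC2 are near-interchangeable class I enzymes found in the SIN3, NuRD and CoREST complexes. Hdac1 (ENSMUSG00000028800, chr4:129516104-129542713, reverse strand) stood at 100.4 and 83.9 FPKM in H3.3WT, 98.8 and 97.1 in Cbfa2t2_KO, and 97.0 and 98.5 in H3.3K27M. The widest gap between libraries was within H3.3WT. Its highest library was 1.20 times its lowest, and 0.75% of 11601 genes had a narrower range, where the median of all genes was 1.99. The differences from H3.3WT were 0.09 (-0.23 to 0.42) and 0.09 (-0.30 to 0.48). Copies of Hdac1 were listed too. The processed pseudogene Gm10093, with 99.38% identity over 1444 bases, stood at 32.8 to 38.9 FPKM, and Gm4864, with 94.55% over 1469 bases, at 14.2 to 18.2 FPKM, so an unknown share of Hdac1 fragments may be counted there.

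Hdac2 (ENSMUSG00000019777, chr10:36974544-37001889, forward strand) stood at 21.1 and 30.05 FPKM in H3.3WT, 26.7 and 19.7 in Cbfa2t2_KO, and 22.3 and 25.6 in H3.3K27M. All lines overlapped. The differences were -0.13 (-0.61 to 0.35) and -0.07 (-0.54 to 0.39), neither called. The sum of Hdac1, Hdac2 and Hdac3 lay between 142 and 157 FPKM in every library, and Hdac1 made up 59.1% to 67.9% of it.

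Cbfa2t3 and Prdm14 give no value, and genes known to act with the family were looked at in their place. Of a list of DNA-binding factors linked to CBFA2T proteins and of partners of such factors, among them Cbfb, 10 of 18 were in a table. In Cbfa2t2_KO, where 21.5% of all genes were called lower, 2 of 6 tested fell: Zbtb33, the methyl-DNA binding factor Kaiso (3.39 and 4.47 FPKM in H3.3WT, 2.16 and 1.24 in the knockout), and Cbfb, the partner of RUNX proteins (6.90 and 9.91, then 5.11 and 3.51). The differences were -0.88 and -0.82 (adjusted p = 0.0188 and 0.0271). Leaving out H3.3WT replicate 2 ended both calls (adjusted p = 0.0990 and 0.146), and so did leaving out Cbfa2t2_KO replicate 2 (0.111 and 0.154).

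In H3.3K27M against H3.3WT Tcf3 and Lyl1 were called, while Zbtb33 (-0.59, adjusted p = 0.0607) and Cbfb (-0.21, 0.472) were not. The direct differences of H3.3K27M from Cbfa2t2_KO were not called either for Zbtb33 (0.29, 0.415) or for Cbfb (0.61, 0.113). Tcf3, which encodes the E proteins E12 and E47, stood at 55.4 and 49.5 FPKM in H3.3WT, 55.4 and 57.2 in Cbfa2t2_KO, and 36.1 and 31.0 in H3.3K27M. Both H3.3K27M libraries lay under all others. The difference was -0.63 against H3.3WT (adjusted p = 0.0270) and -0.73 against Cbfa2t2_KO (0.0286). The first was lost without H3.3WT replicate 1 (-0.55), H3.3WT replicate 2 (-0.71) or H3.3K27M replicate 2 (-0.53). It was also lost with median-of-ratios scaling (-0.48, adjusted p = 0.0787), quantile normalization (-0.50, 0.0610) and the length and GC trend removed (-0.19, 0.278). The second was lost without Cbfa2t2_KO replicate 1 (0.0848), Cbfa2t2_KO replicate 2 (0.194) or H3.3K27M replicate 2 (0.0970).

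Lyl1, a basic helix-loop-helix factor that pairs with E proteins, stood at 3.31 and 2.20 FPKM in H3.3WT, 2.10 and 2.35 in Cbfa2t2_KO, and 0.920 and 0.769 in H3.3K27M. Both H3.3K27M libraries were the lowest, and the other lines overlapped. The differences were -1.01 against H3.3WT (adjusted p = 0.00949) and -0.80 against Cbfa2t2_KO (0.0394), 2 of 7 and 2 of 6 tested genes of the list with Tcf3, where 17.8% and 4.68% of all genes were called lower. With the trend removed they were -0.54 (0.0658) and -0.53 (0.0827). The first was lost without H3.3WT replicate 1 (0.0677) or H3.3K27M replicate 2 (0.0551), and the second without any single library of Cbfa2t2_KO or H3.3K27M (0.0680 to 0.231).

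Among 6 tested genes of the germ-line and pluripotency network in which CBFA2T2 and PRDM14 are known, 2 fell in Cbfa2t2_KO, Nanog and Esrrb, and none passed in H3.3K27M against H3.3WT (limma, by the same threshold). Over all genes 21.5% were called lower in Cbfa2t2_KO, and 26.2% were called in H3.3K27M against H3.3WT. Nanog stood at 6.89 and 5.27 FPKM in H3.3WT, 3.06 and 2.85 in Cbfa2t2_KO, and 8.61 and 9.86 in H3.3K27M. The 3 lines did not overlap. The difference in Cbfa2t2_KO was -0.83 ± 0.19 (adjusted p = 0.0126), a call that ended without H3.3WT replicate 1 (0.0656) and without Cbfa2t2_KO replicate 2 (0.0692). H3.3K27M was above Cbfa2t2_KO by 1.37 ± 0.19 (adjusted p = 0.0102), called in 15 of 16 alternatives and lost without Cbfa2t2_KO replicate 2 (1.33, 0.0852). Esrrb, an orphan nuclear receptor of naive pluripotency, fell from 1.28 and 2.09 to 0.794 and 0.712 FPKM (-0.60, adjusted p = 0.0422), a call kept in 6 of 12 alternatives. It was lost without either knockout library (-0.63 and -0.56). The call also ended with a lower or no filter (adjusted p = 0.0521), with quantile normalization (0.0549) and with the length and GC trend removed (0.0707). The progenitor factor Sox2, named here after its values were seen, was also lower in the knockout, with 30.9 and 34.4 FPKM in H3.3WT, 12.3 and 9.55 in Cbfa2t2_KO, and 28.1 and 32.2 in H3.3K27M. Its fall in Cbfa2t2_KO (-1.50, adjusted p = 0.00102) was called in all 14 alternatives.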

How the data were processed

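RNA was measured in 6 poly(A) libraries, 2 for each of 3 lines. The values are FPKM that the authors deposited in 2 tables, and per the submitters' processing notes Trim Galore, HISAT2, StringTie, DESeq and the build GRCm38 were used, with no roles or versions. The annotation, read depth and strand are not given in the sources used here. The H3.3K27M columns carry only the letter M and were assigned on it, and replicate numbers follow column or record order and pair no libraries. The 14082 genes shared by the tables had the same H3.3WT values in each.

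A gene was tested where its mean over the libraries of a fit reached 1 FPKM, using limma 3.58.1 (eBayes with trend, two-sided) in R 4.3.3 on log2(FPKM + 1), with Benjamini-Hochberg adjustment over all tested genes and a threshold of 0.05. Comparisons with H3.3WT used 4 libraries, and those of H3.3K27M with Cbfa2t2_KO all 6. All 7 listed members passed the filter. The members and all gene lists were chosen with earlier results of these data known, and 1 gene each of the NCoR and CoREST lists is not reported here. The text names the 9 members and up to 3 called genes of each other list with the largest change. It also names the 3 genes most correlated with each family member. Other genes of the SIN3 complex, the copies, Mta2, Ptpn9, Man2c1, Gm10658 and Sox2 were added after their values were seen. Models came from GENCODE vM21, copies from BLAST 2.17.0 against its transcripts, upstream windows from RefSeq, and figures from matplotlib 3.10.9. The fit was tested on simulated data. Alternatives covered the pseudocount, filter, scaling, eBayes options, libraries in the fit, each library left out and, added after seeing the data, removal of each library's trend on length and GC content by lowess.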

Additional observations from a re-analysis of the deposited data

How the results depend on the processing

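Sin3a in Cbfa2t2_KO kept its call in all 14 alternatives, and the number of members called there stayed at 1. In H3.3K27M against H3.3WT the number called was 0 with median-of-ratios scaling, 0 with quantile normalization, and 0 to 2 when single libraries were left out. Against Cbfa2t2_KO it was 0 to 1 when single libraries were left out. The cause was not tested. Directions of uncalled members moved around 0. In Cbfa2t2_KO against H3.3WT Hdac2 was at 0.0036 with quantile normalization and 0.048 with the trend removed, and without single libraries Hdac2 ranged from -0.37 to 0.11, Hdac1 from -0.035 to 0.22, Runx1t1 from -0.057 to 0.31 and Ncor1 from -0.15 to 0.45. In H3.3K27M against H3.3WT Cbfa2t2 was at -0.043 with a pseudocount of 0.1. Median-of-ratios scaling gave Hdac2 0.075 and Hdac3 0.052, quantile normalization Hdac2 0.095, Hdac3 0.092 and Ncor1 0.023, and trend removal Ncor1 0.063. Without single libraries Hdac2 ranged from -0.32 to 0.17, Hdac1 from -0.038 to 0.22, Cbfa2t2 from -0.35 to 0.35, Runx1t1 from -0.91 to 0.061, Ncor1 from -0.61 to 0.32, Hdac3 from -0.21 to 0.013 and Cbfa2t2-ps1 from -0.96 to 0.15. Between H3.3K27M and Cbfa2t2_KO Hdac1 was at 0.025 with median-of-ratios scaling and 0.047 with the trend removed, where Hdac2 was at -0.20. Without single libraries Ncor1 ranged from -0.76 to 0.17, Hdac1 from -0.0149 to 0.0093, Hdac2 from -0.15 to 0.27, Cbfa2t2 from -0.028 to 0.67 and Cbfa2t2-ps1 from -0.15 to 0.95.

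Over all genes, 4028 calls in Cbfa2t2_KO became 2236 without H3.3WT replicate 2 and 1915 without Cbfa2t2_KO replicate 2. In H3.3K27M 3049 calls became 1206 and 1007 without H3.3WT replicates 1 and 2, and 1589 without H3.3K27M replicate 2. Between those lines 905 calls became 1462 with the trend removed, 554 in a fit of 4 libraries, and 29 to 786 without single libraries. The share of calls that were higher moved from 37.9% to 50.6% in Cbfa2t2_KO and from 32.1% to 49.3% in H3.3K27M with median-of-ratios scaling. No paired analysis was possible because the labels carry no replicate numbers. The tables hold no counts, so the counting error of low genes such as Cbfa2t2 is unknown.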

Other observations

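Other deacetylases and HDAC-bearing complexes also held a few called genes, where 34.6% of all genes were called in Cbfa2t2_KO and 26.2% in H3.3K27M. Of 10 tested zinc-dependent deacetylases, Hdac5, a class II enzyme that shuttles out of the nucleus, rose in Cbfa2t2_KO from 52.6 and 47.6 FPKM to 77.9 and 88.8, while H3.3K27M stood at 61.2 and 50.8. Its difference was 0.72 ± 0.14 (adjusted p = 0.00687), lost without Cbfa2t2_KO replicate 2 (0.63, 0.0579). Hdac11, the class IV enzyme, fell in both lines, from 32.7 and 34.8 FPKM to 21.1 and 24.3 in Cbfa2t2_KO and 17.3 and 14.9 in H3.3K27M. The fall in H3.3K27M (-1.03, adjusted p = 0.00479) was called in all 14 alternatives, and that in Cbfa2t2_KO (-0.55, 0.0207) was lost without H3.3WT replicate 2 (0.0846) or either knockout library (0.102 and 0.0550) and with median-of-ratios scaling (0.0674).

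Of 15 NuRD genes 2 rose and 1 fell in Cbfa2t2_KO, and 2 rose and 2 fell in H3.3K27M, where 34.6% and 26.2% of all genes were called. The subunit gene Mta3 rose in both, from 8.59 and 7.25 FPKM to 13.6 and 15.4 in Cbfa2t2_KO and 14.6 and 13.7 in H3.3K27M, and Mta1 rose from 55.3 and 43.2 to 71.9 and 78.9 and to 91.4 and 75.3. No library of the other lines overlapped H3.3WT for either gene. Mta3 lost its call in Cbfa2t2_KO without Cbfa2t2_KO replicate 2 (0.0659), and in H3.3K27M without H3.3WT replicate 1 (0.0574), H3.3WT replicate 2 (0.125) or H3.3K27M replicate 2 (0.0537). Mta1 lost it in Cbfa2t2_KO without H3.3WT replicate 2 (0.111) or either knockout library (0.0559 and 0.120), and in H3.3K27M without either H3.3WT library (0.0522 and 0.176) or H3.3K27M replicate 1 (0.0718). The paralogue Mta2, at 67.2 and 58.9 FPKM in H3.3WT, was called lower in H3.3K27M (43.9 and 39.5; -0.58, adjusted p = 0.0339), as was Chd3 (-0.74, 0.0390). Both were lost without either H3.3WT library (-0.49 and -0.68 for Mta2, -0.90 and -0.58 for Chd3) and without H3.3K27M replicate 2 (-0.51 and -0.54). They were also lost with median-of-ratios scaling (adjusted p = 0.109 and 0.0581), quantile normalization (0.0697 and 0.0658) and the length and GC trend removed (0.0678 and 0.146). Gatad2a fell in Cbfa2t2_KO (-0.57, 0.0141), a call that ended without H3.3WT replicate 1 (0.0537) or either knockout library (0.0598 and 0.0702) and with median-of-ratios scaling (0.0517).

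Of 11 CoREST genes Rest, the repressor of neuronal genes, fell in Cbfa2t2_KO from 18.5 and 18.8 FPKM to 11.6 and 8.11 (-0.87, adjusted p = 0.0102; lost without Cbfa2t2_KO replicate 2, 0.0631). Hmg20b fell in H3.3K27M (-0.76, 0.0175), a call that ended without either H3.3WT library (-0.81 and -0.70) and without H3.3K27M replicate 2 (-0.70). It also ended with the length and GC trend removed (adjusted p = 0.106). Over all genes 21.5% were called lower in Cbfa2t2_KO and 17.8% in H3.3K27M.

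Among 5 tested sirtuins, the NAD-dependent deacetylases, Sirt2 rose in both lines (3.22 and 3.26 FPKM in H3.3WT, 6.05 and 8.46 in Cbfa2t2_KO, 5.48 and 5.29 in H3.3K27M) and Sirt1 fell in Cbfa2t2_KO (11.1 and 12.8, then 7.35 and 4.68). Over all genes 13.1% were called higher and 21.5% lower in Cbfa2t2_KO, and 8.42% higher in H3.3K27M. Sirt2 in H3.3K27M (0.59, adjusted p = 0.0451) lost its call without any single library (0.0877 to 0.179). In Cbfa2t2_KO Sirt2 lost it without Cbfa2t2_KO replicate 2 (0.0588), and Sirt1 without H3.3WT replicate 2 (0.0715) or Cbfa2t2_KO replicate 2 (0.0841).

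The LMO and LDB adaptor list had 8 genes tested in Cbfa2t2_KO and 7 in H3.3K27M. Lmo1 (-0.63 and -0.73) and Ssbp4 (-0.79 and -0.64) fell in both lines, Ldb2 rose in Cbfa2t2_KO (0.57) and Ldb1 fell in H3.3K27M (-0.58). Over all genes 21.5% and 17.8% were called lower in these comparisons, and 13.1% were called higher in Cbfa2t2_KO. Of 6 PRDM genes Prdm4 fell in H3.3K27M (-0.64, adjusted p = 0.0329) and none passed in Cbfa2t2_KO. In Cbfa2t2_KO the calls of Lmo1, Ssbp4 and Ldb2 each ended without H3.3WT replicate 2 (0.0529 to 0.144). Leaving out Cbfa2t2_KO replicate 1 ended those of Lmo1 (0.0918) and Ldb2 (0.117), replicate 2 those of Lmo1 (0.0863) and Ssbp4 (0.0516), and H3.3WT replicate 1 that of Ldb2 (0.0678). In H3.3K27M the calls of Lmo1, Ssbp4, Ldb1 and Prdm4 each ended without either H3.3WT library (0.0954 to 0.198). Leaving out H3.3K27M replicate 1 ended those of Lmo1 (0.118), Ssbp4 (0.0620) and Ldb1 (0.0576), and replicate 2 those of Ssbp4 (0.0827), Ldb1 (0.0681) and Prdm4 (0.108). Quantile normalization ended the call of Lmo1 in Cbfa2t2_KO (0.0576). In H3.3K27M median-of-ratios scaling and quantile normalization ended those of Lmo1 (0.0690 and 0.0931), Ldb1 (0.0968 and 0.0753) and Prdm4 (0.0658 and 0.0804). With the length and GC trend removed Ssbp4 in H3.3K27M was at -0.12 (0.538) and Ldb1 at -0.23 (0.190).

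Ptpn9, the protein-coding gene upstream of Sin3a on the same strand, ends at chr9:57062807 and was looked up after Sin3a was seen. It stood at 12.7 and 13.6 FPKM in H3.3WT, 5.46 and 4.09 in Cbfa2t2_KO, and 8.21 and 5.74 in H3.3K27M, the same order of lines as Sin3a. Other neighbours of Sin3a did not all follow this order. Man2c1, downstream on the same strand, stood at 6.38 and 4.59 FPKM in H3.3WT, 5.92 and 7.22 in Cbfa2t2_KO, and 6.96 and 6.27 in H3.3K27M. The antisense model Gm10658 stood at 2.07 and 1.64 FPKM, then 2.36 and 1.89, then 1.33 and 1.41. A shared cause at this locus was not tested. The difference of Ptpn9 in Cbfa2t2_KO (-1.30 ± 0.18, limma adjusted p = 0.00195) was called in all 14 alternatives. That in H3.3K27M (-0.84 ± 0.20, 0.0195) was lost without H3.3WT replicate 1 (0.0823), H3.3WT replicate 2 (0.117) or H3.3K27M replicate 2 (0.0811).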
